A study of Arabidopsis thaliana with 6 samples.

Results

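The protophloem regulators examined here are 10 Arabidopsis thaliana genes chosen by locus, out of 32833 genes in the deposited count table. They are BRX (AT1G31880), PAX (AT2G44830), OPS (AT3G09070), CVP2 (AT1G05470), CVL1 (AT2G32010), BAM3 (AT4G20270), CLE45 (AT1G69588), APL (AT1G79430), SMXL4 (AT4G29920) and SMXL5 (AT5G57130). All 10 were found in the table. 9 of them had reads and were tested, and CLE45 had 0 counts in every library. The IAA group was whole roots of wild type Col-0 seedlings, 3 days after germination, held for 1 h in liquid half-strength Murashige and Skoog medium that held 1 µM IAA, or indole-3-acetic acid, the principal auxin of plants. The mock group was roots of the same genotype and age, held for 1 h in that medium without IAA. Each group had 3 libraries, each made from about 100 roots, so a value is an average over all root cell types. The comparison asks how the root transcriptome responds to a short auxin pulse.

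The protophloem is the first sieve tissue to mature in the root tip and feeds the meristem. Its cells differentiate while auxin flows through them, and the genes above set when and whether a cell file does so. BRX is a plasma membrane protein that restrains the kinase PAX, and PAX activates auxin efflux carriers. Auxin releases BRX from the membrane, and transcription of BRX is itself known to respond to auxin. OPS is a polar membrane protein that promotes differentiation. CVP2 and CVL1 are phosphoinositide 5-phosphatases. The secreted peptide CLE45 and its receptor kinase BAM3 hold differentiation back. APL is a MYB transcription factor of phloem identity, and SMXL4 and SMXL5 are nuclear proteins required for phloem formation.

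The sequences shown first are the stretches before those members that hold the auxin response element of the auxin response factors, because the comparison is one of auxin with mock. Windows of 300 bases before the annotated gene start were read from RefSeq TAIR10.1 for all 10 members and searched on both strands for TGTCTC and for TGTCGG, which do not overlap as motifs. TGTCTC stood in 4 members' windows and TGTCGG in none. Each window is written in the direction of its gene, 5′ to 3′, with the motif in capitals. TGTCTC is the forward orientation and GAGACA its reverse complement. The window of BRX is chr1:11445190-11445489 on the + strand, that of OPS chr3:2771376-2771675 on the - strand, that of APL chr1:29879280-29879579 on the - strand and that of SMXL4 chr4:14636102-14636401 on the - strand.
BRX: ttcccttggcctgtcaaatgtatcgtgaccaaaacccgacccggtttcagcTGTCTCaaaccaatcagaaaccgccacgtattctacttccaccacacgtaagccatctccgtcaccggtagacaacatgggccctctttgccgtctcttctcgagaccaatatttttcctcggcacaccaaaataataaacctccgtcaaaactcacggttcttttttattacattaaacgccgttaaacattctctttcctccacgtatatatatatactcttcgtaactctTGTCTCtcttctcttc
OPS: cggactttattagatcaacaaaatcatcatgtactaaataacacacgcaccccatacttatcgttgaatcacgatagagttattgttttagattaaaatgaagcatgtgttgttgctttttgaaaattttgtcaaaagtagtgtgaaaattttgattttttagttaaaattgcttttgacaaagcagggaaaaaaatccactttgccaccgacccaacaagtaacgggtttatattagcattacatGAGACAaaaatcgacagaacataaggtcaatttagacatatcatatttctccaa
APL: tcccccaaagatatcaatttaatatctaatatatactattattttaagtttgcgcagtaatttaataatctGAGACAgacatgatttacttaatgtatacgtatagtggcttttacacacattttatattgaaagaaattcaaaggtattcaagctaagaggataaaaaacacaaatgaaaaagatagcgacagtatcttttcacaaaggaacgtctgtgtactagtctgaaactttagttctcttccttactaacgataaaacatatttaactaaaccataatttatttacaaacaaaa
SMXL4: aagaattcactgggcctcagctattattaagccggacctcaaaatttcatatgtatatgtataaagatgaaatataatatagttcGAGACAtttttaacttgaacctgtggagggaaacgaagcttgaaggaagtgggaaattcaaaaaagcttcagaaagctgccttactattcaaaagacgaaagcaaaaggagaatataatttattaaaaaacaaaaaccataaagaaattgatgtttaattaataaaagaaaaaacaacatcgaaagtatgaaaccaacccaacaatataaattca
BRX held 2 forward copies, whose first bases lie 249 and 16 bases before the gene start. OPS held 1 reverse copy at 54 bases, APL 1 at 229 bases and SMXL4 1 at 215 bases. Of all 27443 windows of this length in the genome, 13.0% held TGTCTC, 4.91% held TGTCGG, and 1.2% held TGTCTC at least 2 times. The windows of PAX, CVP2, CVL1, BAM3, CLE45 and SMXL5 held neither motif. A match is a description of the letters in this window and not a binding site.

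The 6 libraries held 20808439 to 20984444 counts each. At that depth the limit that a count of 0 allows, 3 counts, is 0.1407 to 0.1476 CPM (counts per 1000000 of the TMM-scaled library total). That limit covers counting error only. Early auxin response genes served as a check of the treatment. GH3.3, which conjugates IAA to amino acids, averaged 985 ± 66.8 CPM in IAA roots and 5.25 ± 1.05 CPM in mock roots (SD, n = 3 each). IAA19, a repressor of auxin signalling, averaged 207 ± 35.7 CPM in IAA roots and 9.80 ± 1.19 CPM in mock roots (SD, n = 3 each). All 9 root identity markers were detected, with a summed level of 394.0 to 428.2 CPM in IAA libraries and 356.2 to 362.7 CPM in mock libraries. All 9 had a log2 fold change above 0, as had 9556 of all 19778 genes tested. 1 of the 9 was called higher (WOX5, a transcription factor of the stem cell niche, 1.9-fold, edgeR adjusted p = 0.0272). The summed level of 7 green shoot markers was uneven within the groups: it was 235.1, 936.8 and 265.9 CPM in IAA libraries 1 to 3 and 1832.5, 231.5 and 2768.5 CPM in mock libraries 1 to 3. None of these 7 was called, and results are also given with that level as a term in the fit where a call depends on it. The summed level of 7 xylem markers was 450.5 to 540.4 CPM in IAA libraries and 457.8 to 555.7 CPM in mock libraries, and 0 of the 7 were called.

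A gene was called at an adjusted p under 0.05 in edgeR's quasi-likelihood test over all 19778 genes tested. By that test 641 genes were higher in IAA roots, which is 3.24% of those tested, and 196 were lower, which is 0.991%. None of the 9 tested protophloem regulators was called in either direction. At an unadjusted p under 0.05, 2 members were higher (BRX and PAX) and 1 was lower (APL), where 9.88% of all genes tested were higher and 7.57% lower. DESeq2 called 1 member, BRX, where it called 4.98% of genes higher and 2.54% lower. limma-voom called none, where it called 3.04% higher and 0.88% lower. The members' log2 fold changes ran between -0.41 and 0.80 with a median of -0.04, beside a median of -0.01 over all genes tested. In bulk roots, fewer cells of a type and less RNA per cell cannot be told apart. A p that misses the threshold does not show that a level was the same.

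**Figure D1:**
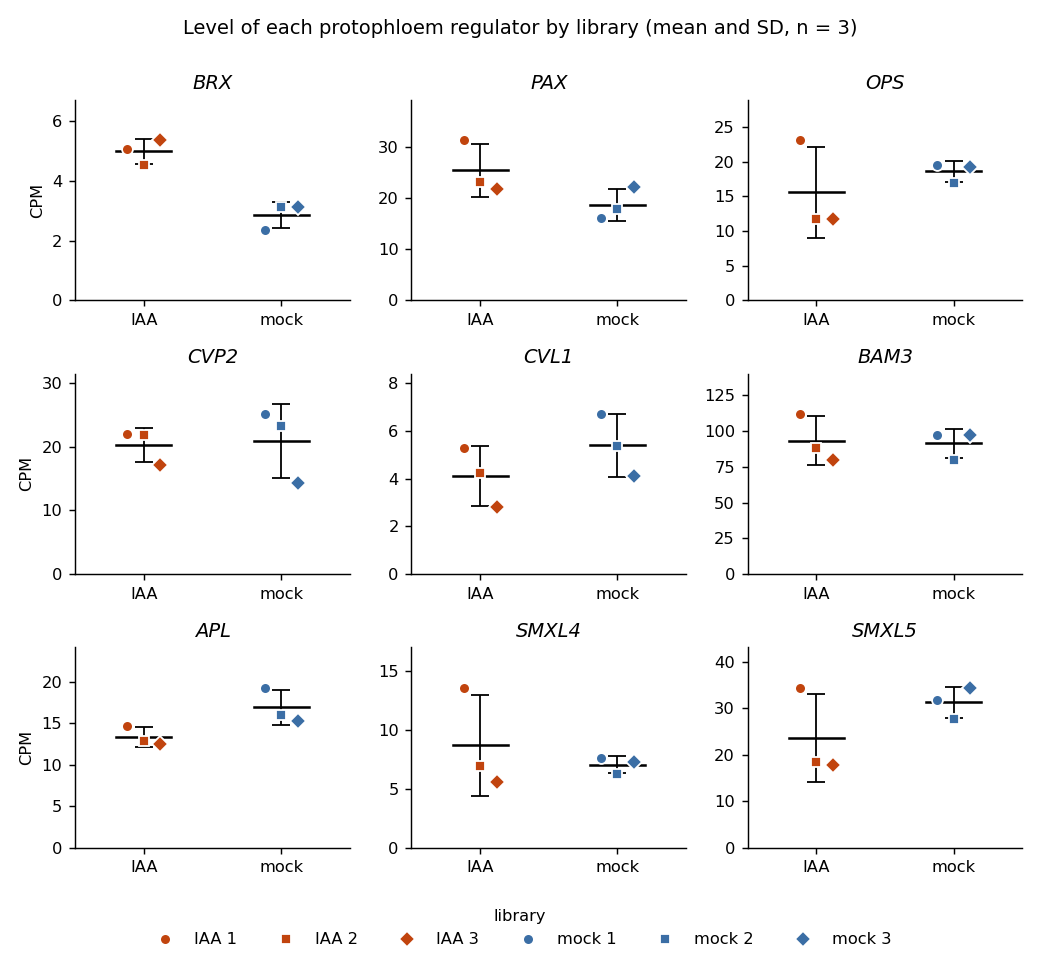
Level in CPM (y axis, from 0) of the 9 regulators with reads, IAA left and mock right; points are libraries, long bars the mean and whiskers the SD of 3 libraries. The IAA and mock points are apart for BRX (4.54 to 5.36 against 2.35 to 3.13 CPM) and for APL (12.5 to 14.7 against 15.3 to 19.3 CPM), and overlap for the other 7. Of all genes tested, 12.3% had every IAA value above every mock value, and 9.83% had every IAA value below.

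BRX, at chr1:11445490-11450232 on the + strand with 8 exon blocks, had the largest log2 fold change of the members. It had 107, 94 and 109 counts in the IAA libraries and 50, 66 and 65 counts in the mock libraries. As CPM these are 5.06, 4.54 and 5.36 in IAA roots and 2.35, 3.12 and 3.13 in mock roots. All 3 IAA libraries lie above all 3 mock libraries, an order that 12.3% of all genes tested share. The means were 4.99 ± 0.415 CPM in IAA roots and 2.86 ± 0.448 CPM in mock roots (SD, n = 3 each). The fold was 1.74 with a 95% interval of 1.28 to 2.37, and the log2 fold change 0.80 ± 0.19 (approximate SE). Its edgeR p was 0.00349 and its adjusted p 0.0672, so the call was not made. The authors' deposited table lists BRX at a log2 fold change of 0.80 with an SE of 0.27 and a DESeq2 adjusted p of 0.0384. There, 4.89% of the 22207 genes with an adjusted p were higher at under 0.05. Under 18 alternatives the log2 fold change of BRX stayed between 0.58 and 0.88, with adjusted p between 0.0379 and 0.256, and only DESeq2 made the call.

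Part of BRX is repeated elsewhere in the genome. Of the 1274 stretches of 50 bases in its exons, 14.1% also occur in AT2G21030, a protein-coding gene at chr2:9024536-9025764 on the - strand. The reads, at 100 bases, are longer than these stretches, and how many reads fit both genes was not tested. AT2G21030 had 79, 39 and 27 counts in IAA libraries and 42, 50 and 35 counts in mock libraries, and its ranges overlap. With the counts of the pair added together, the log2 fold change was 0.58 with an edgeR adjusted p of 0.145. No 50-base stretch of the other 9 members occurs elsewhere.

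PAX, the AGC kinase, lies at chr2:18489607-18493163 on the + strand. It had 31.4, 23.3 and 21.9 CPM in IAA roots and 16.1, 17.9 and 22.2 CPM in mock roots. IAA library 1 is the highest of the 6, and mock library 3 lies above IAA library 3, so the groups overlap. The means were 25.5 ± 5.14 CPM in IAA roots and 18.7 ± 3.12 CPM in mock roots (SD, n = 3 each), a fold of 1.36 with a 95% interval of 1.02 to 1.82. The edgeR p was 0.0379 and the adjusted p 0.25. Without IAA library 1 the log2 fold change was 0.27, against 0.45 with it. Within each library the log2 ratio of BRX to PAX was -2.34 ± 0.30 in IAA roots and -2.71 ± 0.16 in mock roots (SD, n = 3 each), a difference of 0.37, or 0.21 without IAA library 3. The 2-sided exact permutation p was 0.2, where 3 against 3 libraries allow no value below 0.1.

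At the edgeR threshold some relatives and partners of this pair were called and the pair was not. DESeq2 called BRX too, and whether the changes of the relatives differ from that of BRX was not tested. Of the 4 BRX-like genes, 2 were called higher and 0 lower, where 3.24% of all genes tested were called higher and 0.991% lower. All 4 had a log2 fold change above 0, as had 9556 of all 19778 genes tested. The median of the 4 was 0.68, beside -0.01 over all genes tested. BRXL4 had 28.2, 19.8 and 21.5 CPM in IAA roots and 10, 11.5 and 10.1 CPM in mock roots, a 2.2-fold rise (log2 1.13 ± 0.16 approximate SE, edgeR adjusted p = 0.00836). BRXL1 had 5.86, 6.04 and 6.84 CPM in IAA roots and 3.14, 3.07 and 2.12 CPM in mock roots, a 2.25-fold rise (log2 1.17 ± 0.20 approximate SE, edgeR adjusted p = 0.0205). In both genes every IAA library lies above every mock library, as in 12.3% of all genes tested. BRXL2 had a log2 fold change of 0.22 and BRXL3 of 0.05, and neither was called. Without mock library 1 neither BRXL1 (adjusted p = 0.0754) nor BRXL4 (adjusted p = 0.06) was called, and the call of BRXL1 was also lost with the green shoot marker level as a term (adjusted p = 0.0744). BRXL1 likewise lost its call without IAA library 2 (adjusted p = 0.082), without IAA library 3 (adjusted p = 0.0734) and without mock library 2 (adjusted p = 0.0571).

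Of 8 PAX partners and related kinases, 1 was called higher and 0 lower (3.24% and 0.991% of all genes tested). All 8 had a log2 fold change above 0, with a median of 0.27, where 9556 of all 19778 genes tested lay above 0. In 3 of the 8 every IAA library lay above every mock library, an order that 12.3% of all genes tested share. PIP5K1, a phosphatidylinositol 4-phosphate 5-kinase that works with PAX at the membrane, had 262, 229 and 186 CPM in IAA roots and 113, 98.6 and 75.8 CPM in mock roots. The lowest IAA library is above the highest mock library. This was a 2.36-fold rise with a 95% interval of 1.76 to 3.15 (edgeR adjusted p = 0.0101). With the green shoot marker level as a term its adjusted p was 0.0514. PIP5K2, its close relative, had a log2 fold change of 0.13 and was not called. The other members of this list were D6PK and its 3 relatives, the PAX-like kinase PAXL and the auxin response factor ARF5. Their log2 fold changes lay between 0.12 and 0.41, and none was called in the main fit. D6PK, at 0.41, had an edgeR adjusted p of 0.0592, and the authors' deposited table gives it a DESeq2 adjusted p of 0.0106. The list's count higher was 2 with DESeq2, where 4.98% of all genes were higher. It was also 2 with the filter of 1 CPM and 10 counts (3.45%) and without mock library 3 (2.69%).

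**Figure D2:**
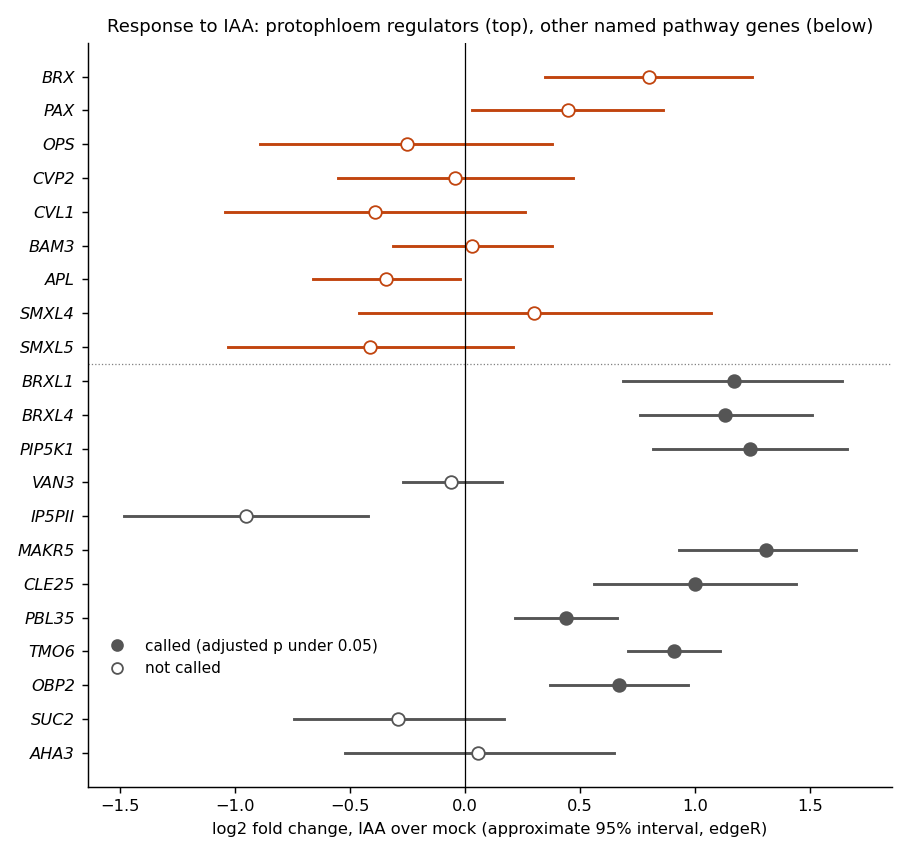
log2 fold change of IAA over mock (x axis) with approximate 95% intervals from edgeR for the 9 regulators (orange, top) and the other named phloem genes (grey, below); filled points were called. No regulator is filled, with BRX at 0.80 and SMXL5 at -0.41 as the extremes, while BRXL1, BRXL4, PIP5K1, MAKR5, CLE25, PBL35, TMO6 and OBP2 are filled and lie between 0.44 and 1.31.

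OPS, a single-exon gene at chr3:2768641-2771375 on the - strand, had 23.1, 11.8 and 11.8 CPM in IAA roots and 19.6, 16.9 and 19.2 CPM in mock roots. IAA library 1 is above every mock library, and IAA libraries 2 and 3 are below every mock library. The means were 15.6 ± 6.53 CPM in IAA roots and 18.6 ± 1.48 CPM in mock roots (SD, n = 3 each). The log2 fold change was -0.25 with a 95% interval of -0.89 to 0.38 (edgeR adjusted p = 0.722). Without IAA library 1 it was -0.65 and passed the test (edgeR adjusted p = 0.0277), in a fit that called 2.17% of genes lower. It was -0.09 without IAA library 2 and -0.08 without IAA library 3.

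CVP2 and CVL1 are the phosphatase pair that removes the 5-phosphate from phosphatidylinositol 4,5-bisphosphate, the lipid that PIP5K1 makes. CVP2, at chr1:1607202-1611840 on the - strand, had 22.1, 21.8 and 17.2 CPM in IAA roots and 25.2, 23.3 and 14.3 CPM in mock roots. Its highest and its lowest values are both mock libraries, and the log2 fold change was -0.04 with a 95% interval of -0.55 to 0.47 (edgeR adjusted p = 0.956). CVL1, at chr2:13624751-13629255 on the + strand, had 5.29, 4.25 and 2.80 CPM in IAA roots and 6.71, 5.38 and 4.09 CPM in mock roots. Its ranges overlap, and the log2 fold change was -0.39 with a 95% interval of -1.04 to 0.26 (edgeR adjusted p = 0.55). It was -0.61 without IAA library 1, -0.17 without IAA library 3 and -0.20 without mock library 1, with no call in any of these fits. The log2 ratio of CVP2 to CVL1 was 2.34 ± 0.28 in IAA roots and 1.94 ± 0.15 in mock roots (SD, n = 3 each), with a 2-sided exact permutation p of 0.2. Their difference of 0.40 was 0.26 without IAA library 3. Over the 3 ratios between members that could be computed, the adjusted p of each was 0.2.

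None of 4 other genes of vein patterning and phosphoinositide turnover was called, and their median log2 fold change was -0.07. VAN3, an ARF GTPase-activating protein needed for continuous veins, averaged 54.1 ± 4.87 CPM in IAA roots and 56.2 ± 1.1 CPM in mock roots (SD, n = 3 each), with an edgeR adjusted p of 0.842. IP5PII, an inositol polyphosphate 5-phosphatase, had 23.3, 18.9 and 15.2 CPM in IAA roots and 44.7, 39.7 and 26.8 CPM in mock roots. Every IAA library lies below every mock library, an order that 9.83% of all genes tested share. Its log2 fold change was -0.95 with a 95% interval of -1.48 to -0.42, and the edgeR adjusted p of 0.068 missed the threshold. DESeq2 called it lower (adjusted p = 0.00153). So did edgeR without IAA library 1 (adjusted p = 0.0362) and without mock library 3 (adjusted p = 0.0261).

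BAM3, at chr4:10949573-10953113 on the + strand, had 112, 88.4 and 79.4 CPM in IAA roots and 96.9, 79.8 and 97.4 CPM in mock roots. Those ranges overlap almost wholly. The means were 93.3 ± 17.0 CPM in IAA roots and 91.4 ± 10 CPM in mock roots (SD, n = 3 each), with a log2 fold change of 0.03 and a 95% interval of -0.31 to 0.38 (edgeR adjusted p = 0.953). Its ligand gene could not be compared.

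CLE45, at chr1:26178042-26178925 on the + strand, is 1 exon of 884 bases with a coding part of 375 bases. It had 0 counts in all 6 libraries, which allows up to 0.1476 CPM of assigned reads in the library with the smallest scaled total. Its exon lies opposite an exon of AT1G69587, an antisense long non-coding RNA at chr1:26175566-26179389 on the - strand, and 94.8% of its bases are shared with that gene. AT1G69587 had 170, 159 and 187 counts in IAA libraries and 138, 197 and 174 counts in mock libraries. Its log2 fold change was 0.05 (edgeR adjusted p = 0.939). Genes whose exons are nearly all shared were mostly at 0 in the count table. Of protein-coding genes whose exonic bases are all shared, 348 of 349 had 0 counts in all libraries. Of those that share 90% or more but not all, 158 of 190 (83.2%) had 0 counts. Of those that share some bases but under 90%, 407 of 6944 (5.86%) had 0 counts, and of those that share none, 2850 of 19961 (14.3%). The sources used here do not name the counting tool or its strand setting, so the 0 of CLE45 cannot be read as a measure of its transcript. Whether the overlap sets that 0 was not tested. The other 9 members share no exonic base with another gene.

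**Figure D3:**
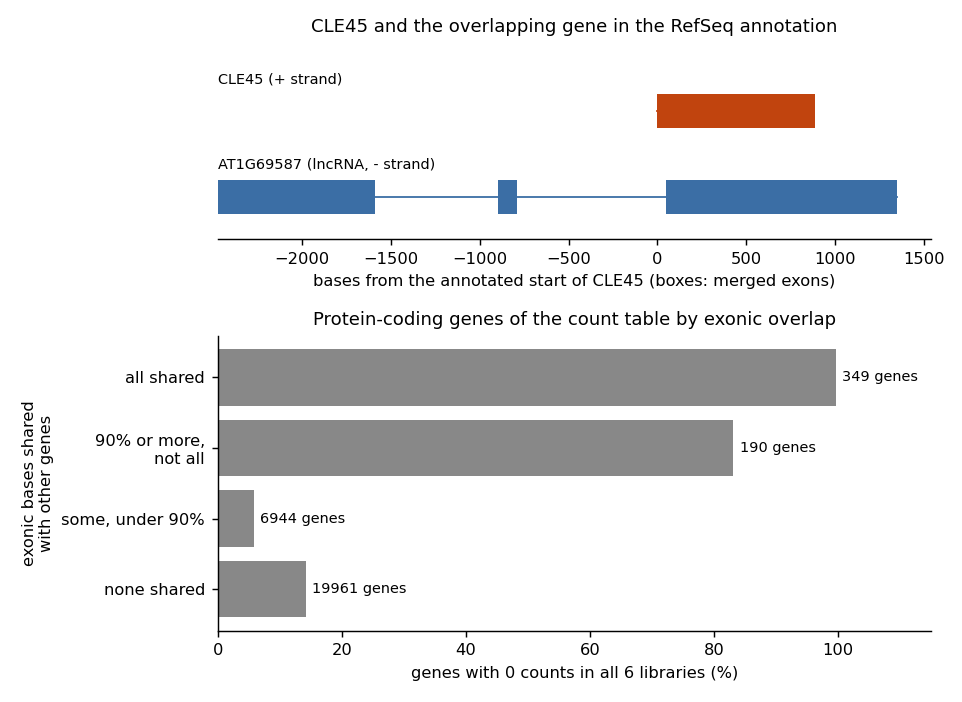
Top: merged exons (boxes) of CLE45 and of the antisense gene AT1G69587, by distance in bases from the annotated start of CLE45. Bottom: percent of protein-coding genes with 0 counts in all 6 libraries (x axis), by the share of their exonic bases that lies in other genes' exons; it is 99.7% where all bases are shared, 83.2% at 90% or more, 5.86% below that and 14.3% where none is.

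Of 14 other genes of the CLE and BAM3 pathway, 3 were called higher and 0 lower (3.24% and 0.991% of all genes tested), with a median log2 fold change of 0.19. MAKR5, a membrane-associated kinase regulator that amplifies the CLE45 signal, had 34.5, 25.5 and 22.6 CPM in IAA roots and 11.2, 11.1 and 11 CPM in mock roots. The lowest IAA library is above the highest mock library, an order that 12.3% of all genes tested share. The rise was 2.48-fold with a 95% interval of 1.90 to 3.25 (edgeR adjusted p = 0.00532). CLE25, which encodes another secreted peptide of the phloem, had 10.1, 6.76 and 8.16 CPM in IAA roots and 4.41, 3.73 and 4.38 CPM in mock roots, a 2.00-fold rise (edgeR adjusted p = 0.0285). PBL35, a receptor-like cytoplasmic kinase downstream of CLE peptides, had 31.6, 34.2 and 31.2 CPM in IAA roots and 23.5, 22.9 and 25 CPM in mock roots, a 1.36-fold rise (edgeR adjusted p = 0.0462). The call of CLE25 was lost with the green shoot marker level as a term (adjusted p = 0.109) and when IAA library 3 or any 1 mock library was left out (adjusted p 0.0611 to 0.116). The call of PBL35 was lost with that term (adjusted p = 0.0685) and when any 1 of the 6 libraries was left out (adjusted p 0.0518 to 0.205). It was also lost with plain library totals as the scaling (adjusted p = 0.0602). The receptors BAM1 and BAM2, with log2 fold changes of 0.29 and 0.19, were not called, nor were CLV2 and CRN or the 4 co-receptor kinases CIK1 to CIK4. PBL34 had a log2 fold change of 0.37 and was not called (edgeR adjusted p = 0.0767). The authors' deposited table gives PBL34 a DESeq2 adjusted p of 0.037.

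APL, at chr1:29877228-29879279 on the - strand, had 14.7, 12.8 and 12.5 CPM in IAA roots and 19.3, 16.0 and 15.3 CPM in mock roots. All 3 IAA libraries lie below all 3 mock libraries, as they do for 9.83% of all genes tested. The means were 13.3 ± 1.22 CPM in IAA roots and 16.9 ± 2.13 CPM in mock roots (SD, n = 3 each), with a log2 fold change of -0.34 and a 95% interval of -0.66 to -0.02. The edgeR p was 0.0391 and the adjusted p 0.253. The authors' deposited table gives APL an adjusted p of 0.314.

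SMXL5, at chr5:23144947-23149615 on the + strand, had 34.5, 18.4 and 17.8 CPM in IAA roots and 31.9, 27.8 and 34.3 CPM in mock roots. IAA library 1 is the highest of the 6, and the other 2 IAA libraries are the lowest. Its log2 fold change was -0.41 with a 95% interval of -1.03 to 0.21 (edgeR adjusted p = 0.499). Without IAA library 1 it was -0.79 and passed the test (edgeR adjusted p = 0.0115), and it was -0.26 without IAA library 2 and -0.24 without IAA library 3. SMXL4, at chr4:14632413-14636101 on the - strand, had 13.6, 6.91 and 5.56 CPM in IAA roots and 7.65, 6.23 and 7.27 CPM in mock roots. Only IAA library 1 lies outside the span of 5.56 to 7.65 CPM. The log2 fold change was 0.30 with a 95% interval of -0.46 to 1.07 (edgeR adjusted p = 0.723), and -0.18 without IAA library 1.

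Both relatives had their highest IAA value in the same library. The log2 ratio of SMXL4 to SMXL5 was -1.34, -1.41 and -1.68 in IAA libraries and -2.06, -2.16 and -2.24 in mock libraries, with no overlap. The means differed by 0.67, and the 2-sided exact permutation p was 0.1, the smallest this design allows, or 0.2 adjusted over 3 ratios. Without IAA library 1 the difference was 0.61. A ratio within a library bears on unequal change of the pair and not on which of them changed. At an adjusted permutation p of 0.2, unequal change was not shown.

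A list of 14 other phloem regulators held transcriptional regulators, the nucleases NEN1, NEN2 and NEN4, and JUL1. Of these 14 genes, 2 were called higher and 0 lower (3.24% and 0.991% of all genes tested), with a median log2 fold change of 0.27. TMO6, a DOF transcription factor of early vascular cells, had 66.3, 60.9 and 61.2 CPM in IAA roots and 32.4, 33.4 and 34.2 CPM in mock roots, a 1.88-fold rise with a 95% interval of 1.64 to 2.16 (edgeR adjusted p = 0.00126). OBP2, another DOF factor, had 34.0, 39.0 and 32.1 CPM in IAA roots and 21.4, 19.6 and 25.1 CPM in mock roots, a 1.59-fold rise (edgeR adjusted p = 0.0302). The call of OBP2 was lost without IAA library 2 (adjusted p = 0.124), without mock library 1 (adjusted p = 0.154) and without mock library 2 (adjusted p = 0.0853). The factors that act in sieve element maturation were not called: NAC045 had a log2 fold change of 0.47 and NAC086 of 0.04, and the nucleases NEN1, NEN2 and NEN4 lay at 0.05, 0.48 and -0.31. SMXL3, which acts with SMXL4 and SMXL5, had a log2 fold change of 0.21 and was not called.

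Markers of mature sieve elements and companion cells were summed as a measure of phloem RNA in each library. The sum was 389.8, 285.7 and 300.2 CPM in IAA libraries and 433.0, 358.5 and 322.2 CPM in mock libraries, so the groups overlap. Of 12 markers, SULTR1;3 was at 0 counts in all libraries, and 0 of the 11 tested were called. Their median log2 fold change was -0.20, and 9 of the 11 lay below 0, where 10222 of all 19778 genes tested did. FTIP1, which moves the FT protein out of companion cells, had 26.5, 18.3 and 20.1 CPM in IAA roots and 35.6, 32.8 and 30.5 CPM in mock roots. Every IAA library lies below every mock library, as in 9.83% of all genes tested. The log2 fold change of FTIP1 was -0.61 with an edgeR p of 0.00444 and an adjusted p of 0.076. The authors' deposited table gives FTIP1 a DESeq2 adjusted p of 0.0133. SUC2, the sucrose transporter of companion cells, averaged 67.3 ± 3.00 CPM in IAA roots and 82.0 ± 23.2 CPM in mock roots (SD, n = 3 each, edgeR adjusted p = 0.521). AHA3, a proton pump of companion cells, had 117, 60.7 and 69.6 CPM in IAA roots and 89.4, 71.9 and 75.8 CPM in mock roots (edgeR adjusted p = 0.94).

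**Figure D4:**
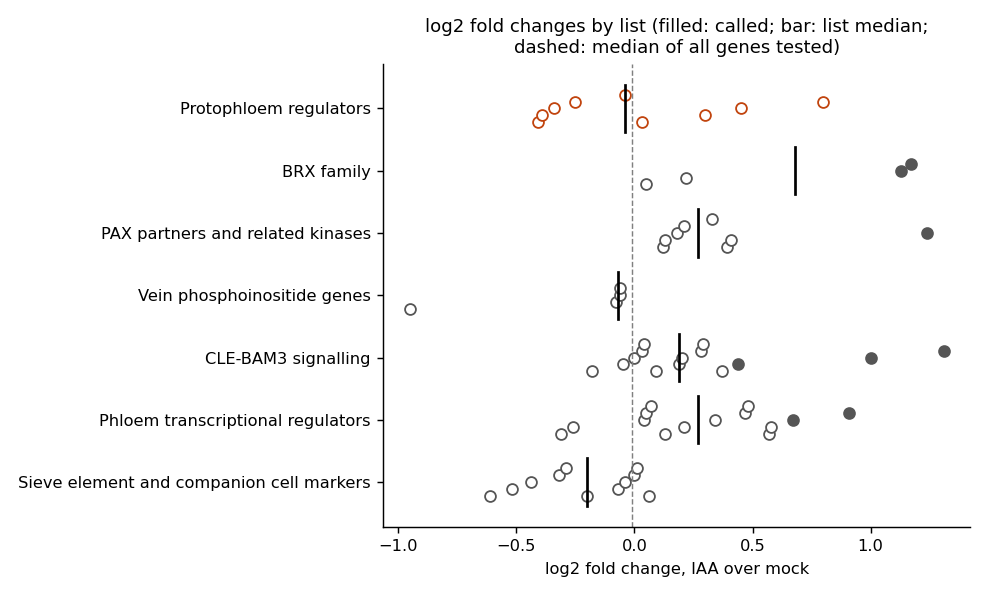
log2 fold change of IAA over mock (x axis) for each tested gene of the protophloem regulators (orange) and of 6 lists of related genes (grey); filled points were called, black bars are list medians and the dashed line is the median of all genes tested, -0.01. The regulators' median is -0.04 and the BRX family's 0.68, and all called points lie to the right of 0.

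Over the 6 lists together, 8 of 55 tested genes were called higher and 0 lower, where 3.24% of all genes tested were higher and 0.991% lower. The median log2 fold change was 0.12. The lists were chosen with earlier results of these data known. The counts of single lists and of all 6 are therefore no test of an excess over all genes. Without mock library 1 the count higher was 3, where 1.3% of all genes were higher, and without mock library 2 it was 4, where 1.85% were. Without IAA library 2 it was 5, where 1.63% of all genes were higher, and without IAA library 3 also 5, where 2.57% were. MAKR5 kept its call under every alternative run. None of the 8 genes held TGTCTC or TGTCGG in its 300-base window, where 17.3% of all 27443 windows held either motif.

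IAA library 1 stood apart for most of the regulators. On the log2(CPM + 0.5) scale its median deviation from the mean of its own group over the 9 members was 0.31, where it was -0.11 in IAA library 2 and -0.23 in IAA library 3. In mock libraries 1 to 3 the median deviations were 0.09, -0.07 and 0.05. Over all genes tested, the medians were within 0.01 of 0 in every library. IAA library 1 was the highest IAA library for 8 of the 9 members, where it was the highest for 39.8% of all genes tested. Its excess was 0.72 for SMXL4, 0.63 for OPS, 0.61 for SMXL5, 0.37 for CVL1 and 0.31 for PAX. BRX, at 0.02, was the member it was not highest for. The pattern was not particular to the regulators. The summed level of each of the 6 related lists, sieve element and companion cell markers included, was also highest in this library among the IAA libraries. Over the 6 lists together it was 1904.1 CPM, beside 1705.9 and 1656.3. The summed xylem markers were highest in this library too. Of the single tested phloem markers, all but SUC2 were highest in IAA library 1 among the IAA libraries. SUC2 was lowest in it (63.9 CPM, beside 69.7 and 68.2). The summed root identity markers were lowest in it (394.0 CPM, beside 399.8 and 428.2). Of the single root identity markers, only CASP1 (119 CPM, beside 177 and 191) and RHD6 (17.8 CPM, beside 18.6 and 18.2) were lowest in it. The other root identity markers were highest in it among the IAA libraries. The part of these marker levels in the members' values was not tested.

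**Figure D5:**
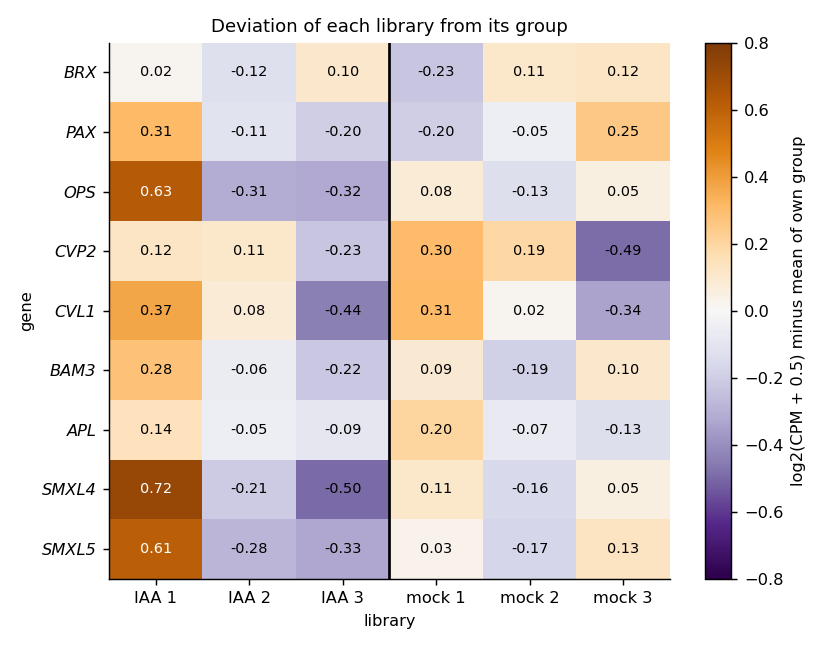
Deviation of each library from the mean of its own group on the log2(CPM + 0.5) scale, by regulator (rows) and library (columns, IAA left of the line and mock right); brown is above the group and purple below. The column of IAA library 1 is above its group for all 9 genes, by 0.02 for BRX up to 0.72 for SMXL4.

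Levels between genes were compared per kilobase of exon. In IAA roots BAM3 was first at 27.3 ± 4.97 CPM per kb, followed by APL (8.32 ± 0.761), PAX (8.11 ± 1.63), SMXL5 (6.45 ± 2.60), CVP2 (5.70 ± 0.772) and OPS (5.69 ± 2.39), all as mean ± SD with n = 3. BRX followed at 3.02 ± 0.251 CPM per kb, then SMXL4 at 2.47 ± 1.23 and CVL1 at 1.35 ± 0.409. The neighbours from APL down to OPS overlap with one another in turn, as do BRX, SMXL4 and CVL1, while BAM3 and APL do not overlap, nor do OPS and BRX. In mock roots BAM3 was again first at 26.7 ± 2.94 CPM per kb, followed by APL (10.5 ± 1.33), SMXL5 (8.58 ± 0.908), OPS (6.78 ± 0.542), PAX (5.95 ± 0.992) and CVP2 (5.87 ± 1.62). SMXL4 (2.00 ± 0.208), CVL1 (1.76 ± 0.428) and BRX (1.73 ± 0.271) came last of those with reads, and these neighbours overlap. BRX was thus the 7th of the 10 genes in IAA roots and the 9th in mock roots. PAX was the 3rd in IAA roots and the 5th in mock roots, among neighbours whose ranges overlap.

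The genes whose log2(CPM + 0.5) followed BRX most closely over the 6 libraries were TBL8 (Pearson r = 0.997), AT3G02242 (r = 0.993) and AT5G48175 (r = 0.992), out of 19769 genes compared. AT5G48175 was itself called higher, at a log2 fold change of 1.09 (edgeR adjusted p = 0.0175), and the other two were not. For PAX they were AT5G22400 (r = 0.997), the auxin signalling repressor IAA7 (r = 0.992) and the ubiquitin-specific protease UBP9 (r = 0.987), none of them called. These points share the libraries and the group difference, and r above 0.95 was reached by 155 genes for BRX and by 62 for PAX, so the values describe likeness over these 6 libraries only.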

How the data were processed

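RNA was taken from whole roots of 3 IAA and 3 mock samples, depleted of ribosomal RNA and sequenced as read pairs, per the labels' protocols. The authors deposited raw counts per gene, whole numbers with no normalization, with 1 column for each sample although the series mentions technical runs. The tools named in the submitters' processing notes are STAR 2.5.2b, DESeq2 1.26.0, SAMtools and FastQC, with TAIR10 as the build. The counting tool, annotation and strandedness are not given in the sources used. The authors' comparison table gives, per the file headers, a mean normalized signal, a log2 fold change with its SE, a Wald score, and p-values raw and adjusted.

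The members and gene lists were chosen with earlier results of these data known. Counts were tested with edgeR 4.0.16 (R 4.3.3) by robust glmQLFit and glmQLFTest, after TMM scaling and filterByExpr, with group alone as a term, over 19778 genes with Benjamini-Hochberg adjustment. SEs are the absolute log2 fold change over the square root of F. The procedure was tested on simulated data. CPM are counts per 1000000 of the TMM-scaled total. The series names the samples biological replicates but gives no separate growth or treatment, so p-values measure only the spread between these samples, which may be technical. Alternatives were library totals, RLE size factors, a filter of 1 CPM and 10 counts in 3 libraries, no low-count filter, DESeq2 1.42.0, limma-voom (limma 3.58.1), the replicate number as a block, no organelle genes, an adjusted p under 0.01, a 2-fold minimum, and each library left out. The green shoot marker term and the sum of BRX with AT2G21030 were added after seeing the data. Named genes are all members; the called genes of each list, or its 2 most abundant where none was called; GH3.3 and IAA19; and the 3 genes most correlated with BRX and with PAX. Other list genes were named after their values were seen. Positions, exons and sequences are from RefSeq TAIR10.1, matched by locus tag; it is the reference at hand, and the files hold no coordinates. The ratio of CLE45 to BAM3 had been planned and could not be computed, because CLE45 was at 0. 1 further gene was left out of the list of PAX partners and is not reported here.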

Additional observations from a re-analysis of the deposited data

How the results depend on the processing

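The count of called regulators was 0 in each direction under all alternatives but 2. DESeq2 called 1 higher (BRX), where 4.98% of all genes were higher. Without IAA library 1, edgeR called 2 lower (OPS and SMXL5), where 2.17% of all genes were lower. Leaving out 1 library thus gave 0 to 2 lower. The threshold of 0.01 and the 2-fold minimum apply a stricter rule to the main fit, so their 0 was fixed in advance. For the 6 related lists the count higher was 8 and became 4 with the green shoot marker term, 3 at the threshold of 0.01, 4 with a 2-fold minimum and 5 with the replicate block. The share of all genes called higher fell as well, to 2.06%, 1.38%, 1.93% and 2.34% in that order. The count was 3 to 7 when 1 library was left out, where 1.3% to 4.2% of all genes were higher. It was 10 with DESeq2, where 4.98% were higher, and 9 with the filter of 1 CPM and 10 counts, where 3.45% were. The count lower was 0 and became 2 with DESeq2 (IP5PII and FTIP1), where 2.54% of all genes were lower. It was 1 with the replicate block (IP5PII), where 0.753% were, and 0 to 2 without 1 library, where 0.235% to 2.17% were. Under the block the calls of BRXL1 (adjusted p = 0.067), OBP2 (0.0875) and PBL35 (0.108) were lost. The sign of the log2 fold change was not fixed for CVP2 (-0.25 to 0.11 over the fits without 1 library), BAM3 (-0.12 to 0.14) and SMXL4 (-0.18 to 0.55), none of them called. AHA3 ran between -0.28 and 0.24 over the fits without 1 library, and was -0.02 with the green shoot term. The deviations of same-numbered IAA and mock libraries from their groups correlated at 0.123, -0.442 and 0.218. With 3 libraries a group, these values cannot show whether same-numbered samples were handled together. With the replicate block no regulator was called, and BRX had a log2 fold change of 0.81 (edgeR adjusted p = 0.129). Taken within replicate numbers, the ratio differences of 0.37, 0.40 and 0.67 are unchanged by arithmetic, so that setting is no check of them. The smallest possible permutation p there is 0.25. BRX had 50 to 109 counts a library, the fewest in total of the tested regulators. The causes of these changes were not tested.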
